A study of Danio rerio with 4 samples.

Results

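The genes described here encode the contractile apparatus of heart muscle: thick filament proteins, thin filament proteins, titin and the M-band, and the Z-disc with the intercalated disc that joins neighbouring cells. They were a list of 36 symbols, of which 35 were found among the 24438 gene symbols of the deposited matrices. The genes found were 7 thick filament genes, 9 thin filament genes, 6 titin and M-band genes, and 13 genes of the Z-disc and intercalated disc. The symbol not found was vmhc, the ventricular myosin heavy chain. A RefSeq table of another assembly, GRCz12tu, lists vmhc as a synonym of myh7, so myh7 (ENSDARG00000079564) is described beside the 35 genes and is not counted among them.

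The sarcomere is the repeating unit of the myofibril. Thick filaments of myosin pull on thin filaments of actin, and tropomyosin with the troponin complex lets them do so when calcium rises. Titin spans from the Z-disc, where α-actinin cross-links the thin filaments, to the M-band, where myomesin holds the thick filaments. During zebrafish heart regeneration, surviving cardiomyocytes are known to take their sarcomeres partly apart, divide and rebuild them.

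Single-cell RNA libraries were made from cells of strain AB zebrafish ventricles sorted for EGFP under the pdgfrb promoter, with 1 library per group. The mutant library came from fish of 6 months that carried the transgenes pdgfrb:EGFP, cxcl12b:Citrine and also fli1a:DsRed, and were pdgfrb-/- (um148 allele). The wildtype library came from fish of 6 months with the same 3 transgenes. The injured library came from fish of 18 months with pdgfrb:EGFP and cxcl12b:Citrine, 7 days after the apex of the ventricle was amputated, and the uninjured library came from fish of 18 months with the same transgenes and no injury. The 6-month pair and the 18-month pair differ in age and in a reporter, so levels are set side by side across them without a comparison. How many fish went into a library, and what the mutation does to the gene, is not given in the labels.

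After filtering there were 1119 mutant, 949 wildtype, 1392 injured and 2010 uninjured cells. Cardiomyocytes were taken as cells with at least 3% of their UMIs (unique molecular identifiers, 1 per captured transcript) from myl7, and they numbered 891, 672, 622 and 1049 in the same libraries, or 79.6%, 70.8%, 44.7% and 52.2% of the cells. They held 2208870, 1538462, 2371024 and 3653073 UMIs. Between 6 and 39 cells per library lay just inside this threshold, at 3% to 4%, and 13 to 28 lay just outside, at 2% to 3%. The sort was for EGFP, yet EGFP UMIs were present in 0.965% to 2.02% of cardiomyocytes (medians of 1991 to 3077.5 UMIs), against 94.4% to 98.9% of the cells of an unnamed cluster led by TCIM, agtr2 and rgs5a in the 3 libraries that held it (medians of 954 to 1437.5 UMIs). Transcripts of pdgfrb, the mutated gene, numbered 7 in the mutant library and 115 in the wildtype library over all cells, and 0 and 3 of these were in cardiomyocytes. The cluster led by TCIM, agtr2 and rgs5a had 0 cells in the mutant library and 92 in the wildtype library. These pdgfrb totals thus come from different mixes of cells. Pairs of libraries shared 0 to 4 barcodes, and 1 to 3 cardiomyocytes per library carried a shared one. Since each group is 1 library, no p-value is given. The 95% intervals cover counting error only, and differences describe libraries rather than conditions.

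The 35 genes together took 24.2% of the UMIs of mutant cardiomyocytes, 22.8% of wildtype, 15.7% of injured and 17.8% of uninjured ones. Since myl7 chose the cells, its level is no result. Without it, the other 34 genes took 15.1%, 13.9%, 9.23% and 9.61%. UMIs were found for 34 of the 35 genes in mutant cardiomyocytes, 33 in wildtype, 34 in injured and 34 in uninjured ones. Levels below are CPM, UMIs scaled to the total UMIs of a library's cardiomyocytes. A UMI marks a transcript's 3' end, so CPM is not divided by gene length, and a level also depends on how well each gene's 3' end is annotated and captured.

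**Figure D1:**
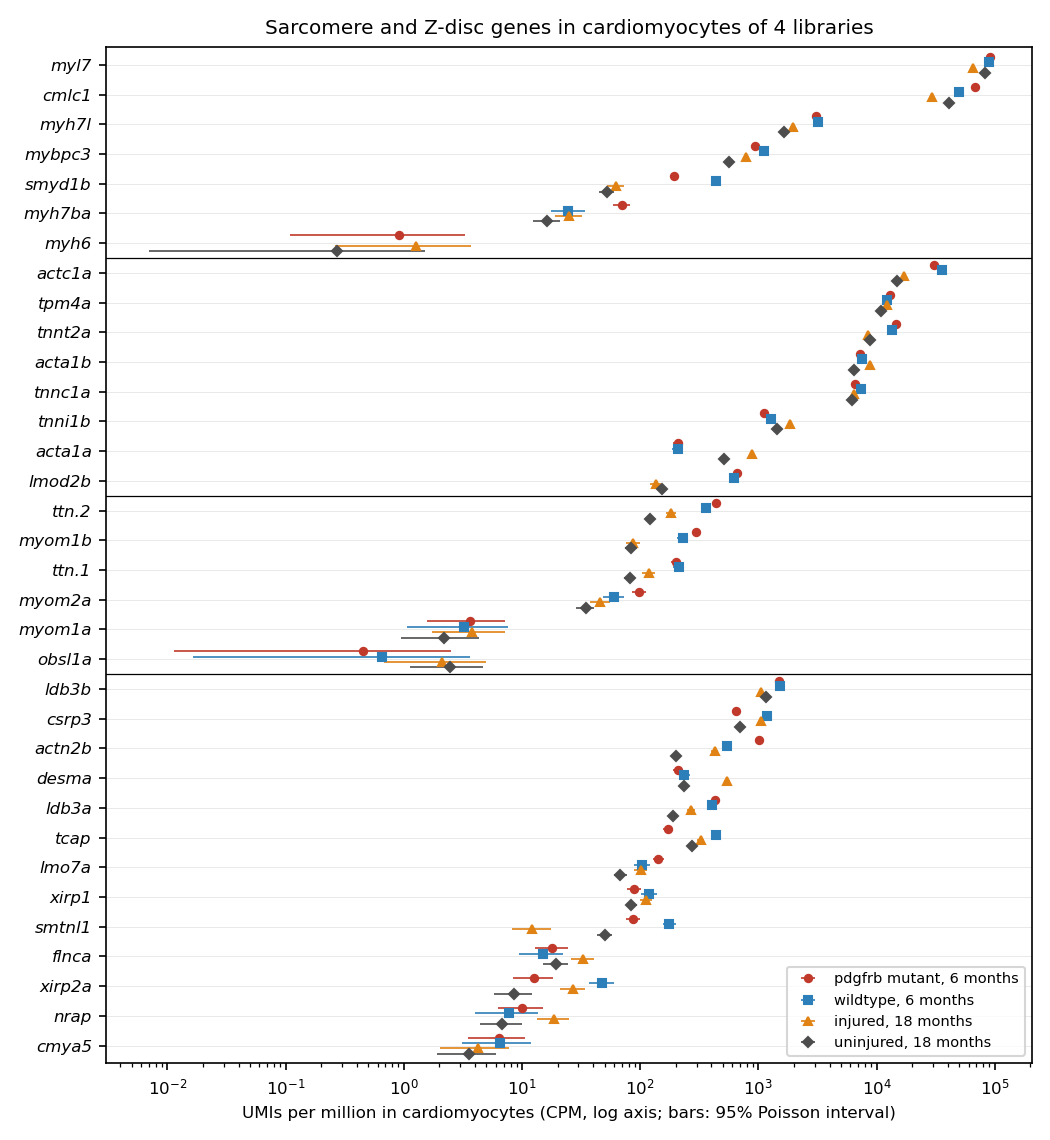
Levels (CPM, log axis) of the genes with any UMI in cardiomyocytes, by library, with 95% Poisson intervals. Black lines separate thick filament, thin filament, titin and M-band, and Z-disc and intercalated disc genes from top to bottom, and a library with 0 UMIs has no point. The levels span from 90576 CPM for myl7 in the mutant library to 0.274 CPM for myh6 in the uninjured library.

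Among thick filament genes, the light chains were the most frequent transcripts. myl7, the regulatory light chain of heart muscle, had 90576 CPM in mutant, 88608 in wildtype, 65096 in injured and 82320 in uninjured cardiomyocytes. cmlc1, an essential light chain, had 67478 CPM in mutant, 50218 in wildtype, 29406 in injured and 41021 in uninjured ones. The heavy chain gene myh7l had 3083 CPM in mutant, 3186 in wildtype, 1958 in injured and 1638 in uninjured ones. Of the UMIs of 4 heavy chain genes (myh6, myh7, myh7l and myh7ba), myh7l held 97.6% in mutant, 99.1% in wildtype, 97.2% in injured and 98.9% in uninjured cardiomyocytes. The atrial heavy chain myh6 was nearly absent, with 2, 0, 3 and 1 UMIs in these 4 libraries. The 0 in wildtype allows up to 1.95 CPM at 3 counts. The tissue was ventricle by its label. The ventricular chain gene myh7 (synonym vmhc) was also low, with 11 UMIs in mutant, 6 in wildtype, 72 in injured and 8 in uninjured cardiomyocytes. Low myh6 counts therefore do not speak for the chamber.

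Thin filament genes followed. The cardiac actin actc1a had 30672 CPM in mutant, 35860 in wildtype, 17051 in injured and 14931 in uninjured cardiomyocytes. tpm4a, a tropomyosin, had 12990.4 CPM in mutant, 12360.4 in wildtype, 12225 in injured and 10917 in uninjured ones. The troponins split by subunit. tnnt2a, the tropomyosin-binding subunit, had 14713 and 13538 CPM in mutant and wildtype and 8411 and 8825 CPM in injured and uninjured cardiomyocytes. tnnc1a, the calcium-binding subunit, had 6616 and 7363 CPM in mutant and wildtype and 6433 and 6200.0 CPM in injured and uninjured ones. tnni1b, an inhibitory subunit, had 1112 and 1272 CPM in mutant and wildtype and 1856 and 1439 CPM in injured and uninjured ones. Of the 3 subunits, tnnc1a lay between 6200.0 and 7363 CPM in all 4 libraries. lmod2b, a leiomodin that lengthens thin filaments at the pointed end, had 659 and 625 CPM in mutant and wildtype and 135 and 152 CPM in injured and uninjured ones.

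The 3 sarcomeric actins held different shares in the 2 pairs of libraries. actc1a held 80.5% of their UMIs in mutant, 82.1% in wildtype, 64.0% in injured and 68.1% in uninjured cardiomyocytes. acta1b, a skeletal-type α-actin, held 18.9%, 17.4%, 32.7% and 29.6% in the same libraries, with 7213, 7595, 8715 and 6485 CPM. acta1a, another skeletal-type α-actin, held 0.551%, 0.476%, 3.30% and 2.32%. Age, reporter and library cannot be told apart in this split. The actc1a count also sums 2 feature IDs, described next, whose use differed between the pairs. What part this had in the actin shares was not tested.

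The symbol actc1a stands for 2 feature IDs in the deposited matrices, and they behaved very differently. The first, ENSDARG00000042535, had 67609 UMIs in mutant, 55086 in wildtype, 16869 in injured and 21384 in uninjured cardiomyocytes. The second, ENSDARG00000076126, had 141, 83, 23560 and 33160 UMIs in the same libraries. A gene name table of the reference calls this second ID actc1c, but the deposited matrices give the symbol actc1c to another feature, with 4 UMIs in mutant, 4 in wildtype, 11 in injured and 24 in uninjured cardiomyocytes. Both IDs have grem1a and scg5 before them and rrm2 after them in the feature list. The second ID thus held 0.208% of actc1a UMIs in mutant and 0.150% in wildtype, but 58.3% in injured and 60.8% in uninjured cardiomyocytes. The 2 IDs may share reads through near-identical sequence, so which copy a UMI came from is uncertain.

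Cell by cell the split was not gradual. Among cardiomyocytes with at least 10 actc1a UMIs, the second ID held under 10% in all 869 mutant cells and all 655 wildtype cells. In the injured library 419 of 590 cells lay between 30% and 60% and 124 lay at 80% or more, with 29 cells in the range from 60% to 80%. In the uninjured library 500 of 921 cells lay between 30% and 60% and 316 at 80% or more, with 84 cells from 60% to 80%. The SD of the share over cells was 19.5 percentage points in injured and 21.9 in uninjured cells, where binomial sampling alone would give 8.10 and 8.44. Both ranges held cells in every cardiomyocyte-like cluster with at least 20 such cells. Over 5 clusters of the injured library, 66.9% to 73.8% of cells lay between 30% and 60% and 17.6% to 28.6% at 80% or more. Over 6 clusters of the uninjured library these shares were 28.0% to 69.3% and 23.3% to 45.7%. The labels do not tie cells to fish.

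**Figure D2:**
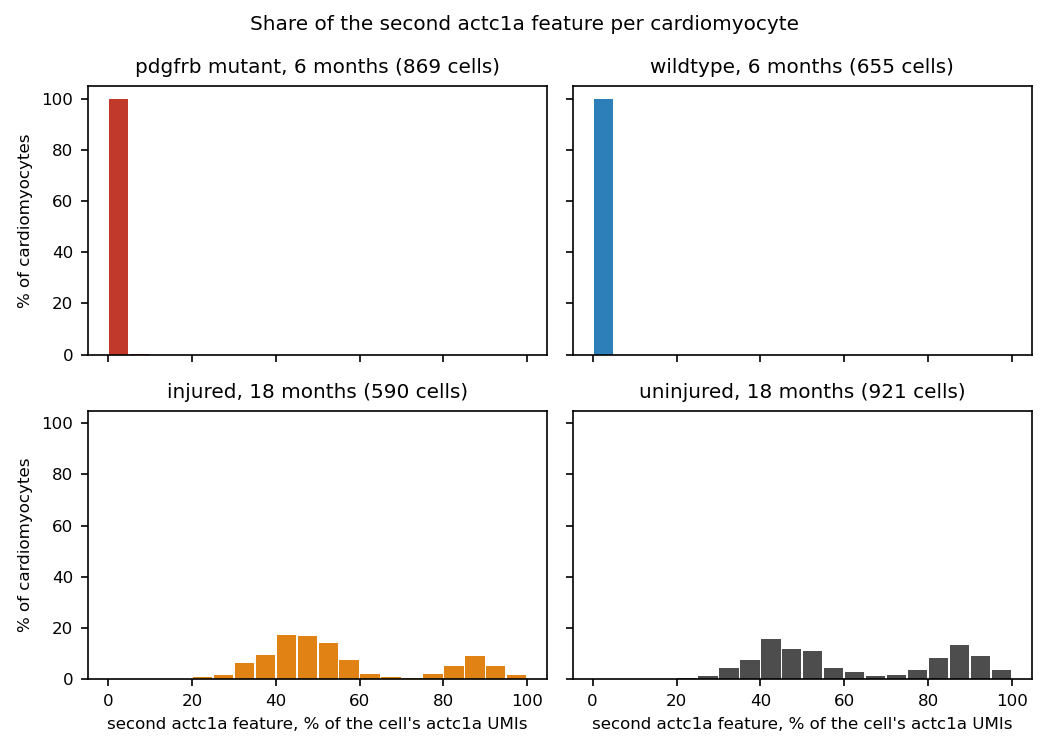
Share of each cardiomyocyte's actc1a UMIs that fell on the second of its 2 feature IDs (x axis, %, in bins of 5) for cells with at least 10 actc1a UMIs, with the percent of cells on the y axis, 1 panel per library. All cells of both 6-month libraries lie under 10%, and both 18-month libraries show 1 range of cells at 30% to 60% and another at 80% or more.

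Titin and M-band genes were at lower levels. The titin genes ttn.1 and ttn.2 lie in tandem in zebrafish, and ttn.2 held 68.8% of their UMIs in mutant, 63.0% in wildtype, 60.9% in injured and 59.7% in uninjured cardiomyocytes. ttn.2 had 441 CPM in mutant, 361 in wildtype, 183 in injured and 120.4 in uninjured ones. ttn.1 had 200.1 CPM in mutant, 213 in wildtype, 118 in injured and 81.3 in uninjured ones. Of the myomesins, which cross-link thick filaments, myom1b held 74.6%, 78.5%, 63.6% and 69.6% of UMIs in the same 4 libraries, and myom1a had 8, 5, 9 and 8 UMIs. obsl1a, an obscurin-like M-band protein, had 1, 1, 5 and 9 UMIs. A gene spanning as long a transcript as titin yields 1 tag per transcript here, so these counts say nothing of protein mass.

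At the Z-disc, ldb3b, a PDZ-LIM protein that binds α-actinin, had 1505 CPM in mutant, 1531 in wildtype, 1044 in injured and 1166 in uninjured cardiomyocytes. Its paralog ldb3a held 22.1%, 20.9%, 20.4% and 13.9% of the UMIs of the pair in the same libraries. cmya5, a large desmin-binding protein, had 14, 10, 10 and 13 UMIs. nebl, a nebulin-related protein of the Z-disc, had 0 UMIs in the cardiomyocytes of all 4 libraries, which at 3 counts allows up to 1.36, 1.95, 1.27 and 0.821 CPM in mutant, wildtype, injured and uninjured. nebl was not absent from the data: 1 UMI in mutant and 4 in uninjured cells fell outside the cardiomyocyte-like clusters.

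The first comparison asked how cardiomyocytes of pdgfrb mutants differ from wildtype ones. Of the 35 genes, 29 reached 50 UMIs in the 2 libraries together. Past 1.5-fold, 3 were higher in the mutant library (10.3% of the 29, against 14.5% of 2515 genes measured in these cells) and 5 were lower (17.2%, against 11.1% of all genes). The median log2 ratio of the 29 was -0.02, and that of all genes was 0.02. The list as a whole thus stood near the background. The 8 thin filament genes measured had ratios between -0.23 and 0.12, and none was past 1.5-fold.

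Of the 3 higher genes, the one with most UMIs was actn2b, an α-actinin of the Z-disc. It had 2256 UMIs (1021 CPM) in mutant and 835 UMIs (543 CPM) in wildtype cardiomyocytes, a log2 ratio of 0.91 (95% interval 0.80 to 1.03). The ratio was past 1.5-fold in 5 of the 6 cardiomyocyte-like clusters that could be measured, with values from 0.35 to 1.01. With every cell thinned to 500 UMIs, it was found in 42.9% of mutant and 21.6% of wildtype cardiomyocytes.

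Of the 5 lower genes, 4 were of the Z-disc and intercalated disc, where 11 were measured. tcap, telethonin, which caps titin's end in the Z-disc, had 382 UMIs (173 CPM) in mutant and 674 UMIs (438 CPM) in wildtype cardiomyocytes (log2 ratio -1.34, -1.53 to -1.16). csrp3, the muscle LIM protein, had 1427 UMIs (646 CPM) in mutant and 1819 UMIs (1182 CPM) in wildtype ones (-0.87, -0.97 to -0.77). smtnl1, a smoothelin-like protein that in mice regulates muscle contractility, had 193 UMIs (87.4 CPM) in mutant and 272 UMIs (177 CPM) in wildtype ones (-1.02, -1.29 to -0.75). All 3 were past 1.5-fold in each cardiomyocyte-like cluster in which they could be measured, which was 4 clusters for tcap, 6 for csrp3 and 4 for smtnl1. xirp2a, a Xin-repeat actin-binding protein of the intercalated disc, had 28 UMIs (12.7 CPM) in mutant and 73 UMIs (47.5 CPM) in wildtype ones (-1.90, -2.59 to -1.26). Its sister gene xirp1 had 88.7 CPM in mutant and 119 CPM in wildtype ones (-0.42), so that xirp2a held 12.5% of the pair's UMIs in mutant and 28.5% in wildtype cardiomyocytes.

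In the thick filament group, smyd1b, a methyltransferase needed in zebrafish for thick filament assembly, was lower in the mutant library. It had 431 UMIs (195 CPM) in mutant and 668 UMIs (434 CPM) in wildtype cardiomyocytes (-1.15, -1.33 to -0.98), and it was past 1.5-fold in all 5 clusters measured. It had 62.4 CPM in injured and 52.3 CPM in uninjured ones (0.26). myh7ba, a slow-type myosin heavy chain, had 154 UMIs (69.7 CPM) in mutant and 38 UMIs (24.7 CPM) in wildtype ones (1.497, 0.98 to 2.05). The M-band gene myom2a had 216 UMIs (97.8 CPM) in mutant and 92 UMIs (59.8 CPM) in wildtype ones (0.71, 0.35 to 1.08), and 46.0 CPM in injured and 34.5 CPM in uninjured ones (0.41). Both genes were much higher in a small titin-rich cluster described below, which supplied 3.73% of mutant and 1.04% of wildtype cardiomyocyte UMIs. Without that cluster, a setting added after seeing the data, myh7ba stood at 0.78 and myom2a at 0.56, the second of these no longer past 1.5-fold, while xirp1 stood at -0.75.

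**Figure D3:**
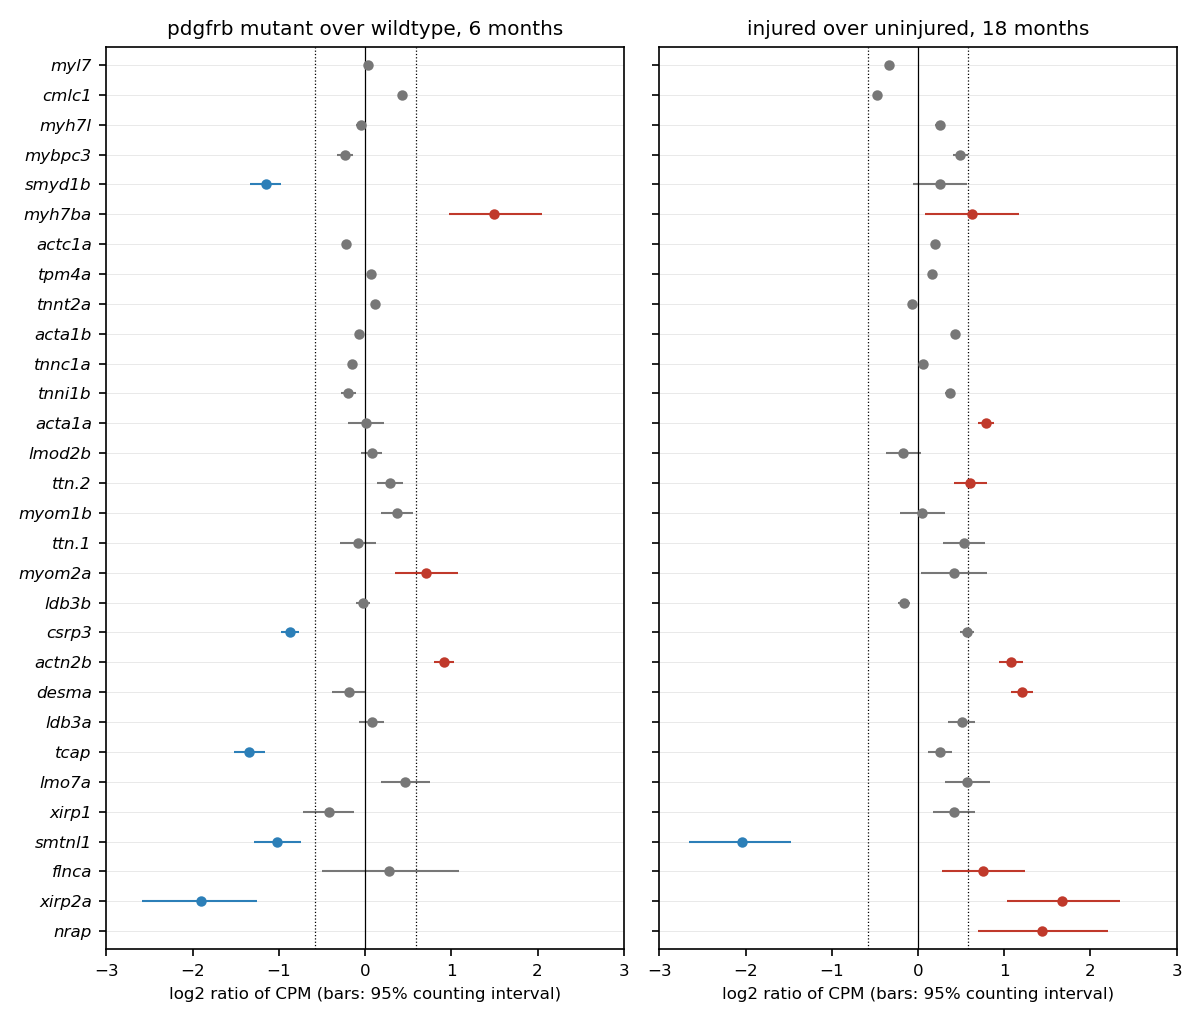
Log2 ratio of CPM in cardiomyocytes, mutant over wildtype at 6 months (left) and injured over uninjured at 18 months (right), for genes that reached 50 UMIs in the 2 libraries of a pair together, with 95% counting intervals. Dotted lines mark 1.5-fold, red points lie above it and blue points below it. The left panel has 3 red and 5 blue points, and the right panel 8 red and 1 blue.

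The second comparison asked how cardiomyocytes differ 7 days after amputation of the apex. Of the 35 genes, 30 were measured, 8 were higher in the injured library past 1.5-fold (26.7%, against 17.3% of 3074 genes) and 1 was lower (3.33%, against 6.41% of all genes). The median log2 ratio was 0.42, beside 0.15 over all genes. Without the titin-rich cluster described below, the median was 0.21, beside 0.12 over all genes. TMM scaling, which trims the most abundant and most changed genes, lowered every ratio of this pair by 0.14. Before this scaling, 24 of the 30 ratios were above 0 and 6 below, but the median over all genes was above 0 too. The share of all genes above 0 was not computed, so the 24 are not read as particular to the list. cmlc1 had a ratio of -0.48, and it reached -0.62, past 1.5-fold, with TMM scaling. Of the next most abundant genes, actc1a (0.19) and tpm4a (0.16) lay near the all-gene median of 0.15, and tnnt2a (-0.07) lay below 0.

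The higher genes with most UMIs were desmin, α-actinin and a skeletal-type actin. desma, the desmin that ties Z-discs to one another, had 1279 UMIs (539 CPM) in injured and 852 UMIs (233 CPM) in uninjured cardiomyocytes (log2 ratio 1.21, 1.08 to 1.34). actn2b had 1010 UMIs (426 CPM) in injured and 739 UMIs (202 CPM) in uninjured ones (1.07, 0.94 to 1.21). acta1a had 2085 UMIs (879 CPM) in injured and 1861 UMIs (509 CPM) in uninjured ones (0.79, 0.70 to 0.88). Within cardiomyocyte-like clusters, desma was past 1.5-fold in 4 of 5, actn2b in 5 of 6 and acta1a in 3 of 5, and the ratio lay above 0 in the others, except for actn2b in 1 cluster (-0.26). With cells thinned to 500 UMIs, desma was found in 19.5% of injured and 9.15% of uninjured cardiomyocytes. In the 6-month pair it had 208 CPM in mutant and 237 CPM in wildtype ones (-0.19), and acta1a had 210.1 CPM in mutant and 208 CPM in wildtype ones (0.01).

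Intercalated disc genes with fewer UMIs were higher as well. xirp2a had 64 UMIs (27.0 CPM) in injured and 31 UMIs (8.49 CPM) in uninjured cardiomyocytes (1.67, 1.03 to 2.34). The 5 cells with most of it gave 45.3% of its UMIs in the injured library and 48.4% in the uninjured library, and without them the ratio was 1.77. In these libraries xirp2a was also found outside cardiomyocyte-like clusters, at levels given below that neared or passed its cardiomyocyte level. The difference was therefore not shown to be particular to cardiomyocytes. nrap, a nebulin-related protein that anchors growing myofibrils, had 44 UMIs (18.6 CPM) in injured and 25 UMIs (6.84 CPM) in uninjured ones (1.44, 0.70 to 2.21), and it had 22 UMIs in mutant and 12 in wildtype cardiomyocytes, too few to be measured there. csrp3, with 1045 CPM in injured and 703 CPM in uninjured cardiomyocytes, and lmo7a, a LIM-domain protein of cell junctions, with 100.8 CPM in injured and 67.9 CPM in uninjured ones, lay just under the threshold at 1.49-fold and 1.48-fold. In the 6-month pair lmo7a had 143 CPM in mutant and 103 CPM in wildtype ones (0.46). tcap had 325 CPM in injured and 272 CPM in uninjured ones (0.26). The ventricular heavy chain gene myh7 (synonym vmhc) had 72 UMIs (30.4 CPM) in injured and 8 UMIs (2.19 CPM) in uninjured cardiomyocytes (3.79, 2.74 to 5.06), and it had 11 UMIs in mutant and 6 in wildtype ones. Its share of heavy chain UMIs was 1.51% in injured and 0.132% in uninjured cells, and myh7l held most of these UMIs in both.

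A few cells held much of the other 3 higher genes too. ttn.2 had 435 UMIs (183 CPM) in injured and 440.0 UMIs (120.4 CPM) in uninjured cardiomyocytes (0.61, 0.41 to 0.80), and 5 cells held 50.6% of the injured UMIs. Within 5 cardiomyocyte-like clusters its ratio ran from -1.33 to 1.14, past 1.5-fold upward in 2 and downward in 2. myh7ba had 59 UMIs in each library, or 24.9 CPM in injured and 16.2 CPM in uninjured ones (0.62, 0.08 to 1.17). flnca, a filamin that cross-links actin at the Z-disc, had 78 UMIs (32.9 CPM) in injured and 71 UMIs (19.4 CPM) in uninjured ones (0.76, 0.28 to 1.24), and it had 40 UMIs in mutant and 23 in wildtype ones (0.28, -0.50 to 1.08). Without the titin-rich cluster all 3 ratios of the injured pair were below 0, at -0.31 for ttn.2, -0.02 for myh7ba and -0.03 for flnca. ttn.2 stayed past 1.5-fold in 3 of 10 alternative settings. Neither ttn.2 nor myh7ba did so with TMM scaling or with cells thinned to 500 UMIs.

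smtnl1 was the one gene lower past 1.5-fold in the injured library, with 29 UMIs (12.2 CPM) in injured and 184 UMIs (50.4 CPM) in uninjured cardiomyocytes (-2.04, -2.66 to -1.47). In the one cluster with enough UMIs to measure it, a cardiomyocyte-like cluster that smtnl1 itself led, it had 5 UMIs (20.9 CPM) in injured and 69 UMIs (126 CPM) in uninjured cells (-2.59). smtnl1 was thus lower, and actn2b higher, in both pairs. How many of all measured genes went the same way in both pairs was not counted, so this overlap is not read as a shared change. xirp2a, by contrast, was lower in the mutant library and higher in the injured one, though in the injured pair it was not confined to cardiomyocyte-like clusters. The 2 pairs were not tested against each other.

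The cardiomyocytes of the 2 libraries of the injured pair also differed in other ways. Their shares over the cardiomyocyte-like clusters differed, with 38.59% of injured and 14.8% of uninjured cardiomyocytes in 1 cluster. All 8 erythrocyte markers were present in injured cardiomyocytes, at 1620 CPM in sum, against 5 of 8 and 57.5 CPM in uninjured ones. Smooth muscle markers (3 of 6 found) came to 56.9 CPM in injured cardiomyocytes, against 2 of 6 and 9.85 CPM in uninjured ones, with myh11a at 0 in both. Endothelial markers came to 14.3 CPM (5 of 12) in injured and 79.1 CPM (9 of 12) in uninjured ones. Median mitochondrial shares were 0.618% and 0.787%. Without cells that held over 1% of their UMIs in other types' markers, the counts were again 8 higher and 1 lower. Of all genes measured there, 17.1% were higher and 6.06% lower. Fibroblast markers came to 54.4 CPM in injured and 27.9 CPM in uninjured cardiomyocytes, mural markers to 44.3 and 37.5 CPM, and epicardium markers to 18.1 and 36.4 CPM.

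Markers of other cell types differed between the libraries of the mutant pair as well. Mural markers came to 35.3 CPM (4 of 10) in mutant and 89.7 CPM (8 of 10) in wildtype cardiomyocytes, with pdgfrb at 0 in the mutant ones. Fibroblast markers came to 81.5 CPM in mutant and 133 CPM in wildtype ones (11 of 12 in each), epicardium markers to 81.5 and 40.3 CPM (3 of 10 in each) and erythrocyte markers to 23.1 and 23.4 CPM (3 of 8 in each). Without cells that held over 1% of their UMIs in such markers, the counts of this pair were again 3 higher and 5 lower. Of all genes measured there, 14.8% were higher and 11% lower.

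Other sarcomere genes, a list of 84 symbols of which 80 were found, mostly had too few UMIs to be measured. In the mutant pair 25 were measured, 6 were higher (24.0%, against 14.5% of all genes) and 3 lower (12.0%, against 11.1%). The assembly, chaperone and turnover genes of the list had 11 measured members, 4 of them higher and 1 of them lower, and their median was -0.05 on the log2 scale. The 4 were the muscle ubiquitin ligase genes trim63a (431 CPM in mutant, 257 CPM in wildtype, log2 ratio 0.75), trim55b (173 and 104 CPM in the same order, 0.73) and fbxo32 (112 and 61.8 CPM, 0.86), and the chaperone partner bag3 (43.9 and 24.1 CPM, 0.87). The lower one was the thick filament chaperone hsp90aa1.1 (79.2 and 157 CPM, -0.98). The other higher genes were the heavy chain myh7bb (45.3 and 22.1 CPM, 1.03) and the Z-disc gene synpo2lb (249.9 and 148 CPM, 0.75). The other lower ones were the Z-disc gene myoz2a (9.05 CPM in mutant, 38.4 CPM in wildtype, -2.08) and the thin filament cap tmod1 (10.9 and 17.6 CPM, -0.69, with an interval that included 0).

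In the injured pair 26 of these other genes were measured, 7 were higher (26.9%, against 17.3% of all genes), myh7 among them, and 0 were lower (against 6.41% of all genes). The myosin chaperones unc45b and hsp90aa1.1 were both higher: unc45b had 62.8 CPM in injured and 40.5 CPM in uninjured cardiomyocytes (0.63), and hsp90aa1.1 had 169 CPM in injured and 74.7 CPM in uninjured ones (1.17). The small heat shock gene hspb8 had 129 CPM in injured and 75.8 CPM in uninjured ones (0.77). The remaining 3 were klhl31 (0.69), trim55a (1.02) and mybphb (0.90), of which trim55a and mybphb had 29 UMIs each in injured cardiomyocytes. hsp90aa1.1 was therefore lower in the mutant library and higher in the injured one.

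A small cluster of cardiomyocyte-like cells stood apart in these genes. Clustering left out the 35 genes, but this cluster was picked because ttn.2 was the first of its leading genes. Leading genes are those highest relative to all other cells. They also included ttn.1, myh7ba, flnca and lmo7a, the calcium exchanger gene slc8a1a and the calcium release channel gene ryr2b. High levels of these members in the cluster are thus no independent result. The cluster held 65 mutant, 30 wildtype, 31 injured and 10 uninjured cells, of which 36, 25, 22 and 9 were under the 3% threshold for myl7. Compared with the other cardiomyocyte-like clusters of the same library, ttn.2 was 35.8 to 75.1 times as high over the 4 libraries, ttn.1 21.7 to 61.5 times, myh7ba 45.2 to 72.1 times and flnca 35.7 to 59.9 times. Next came xirp1 at 9.59 to 34.4 times, lmo7a at 7.29 to 21.9, ldb3a at 5.68 to 13.6, myom1b at 9.51 to 12.5 and myom2a at 8.40 to 12.6 times.

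The 3 genes with most UMIs, myl7, cmlc1 and actc1a, were lower in it. myh7l was 5.48 to 9.84 times as high in this cluster and mybpc3, myosin binding protein C, 2.76 to 4.62 times, but cmlc1 was 0.319 to 0.709 times, myl7 0.331 to 0.512 times and actc1a 0.275 to 0.721 times as high. Several of the genes that stood high, such as the titins and flnca, have very long transcripts. The median UMI count of these cells was 1116 in mutant, 842 in wildtype, 2181 in injured and 652 in uninjured, against 2202, 1980.0, 3004 and 2722 in the other cardiomyocyte-like clusters. Their median mitochondrial share was 6.35%, 7.43%, 10.7% and 9.94%, against 0.785%, 0.579%, 0.616% and 0.796%. The part of depth, mitochondrial share and transcript length in this pattern was not tested.

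**Figure D4:**
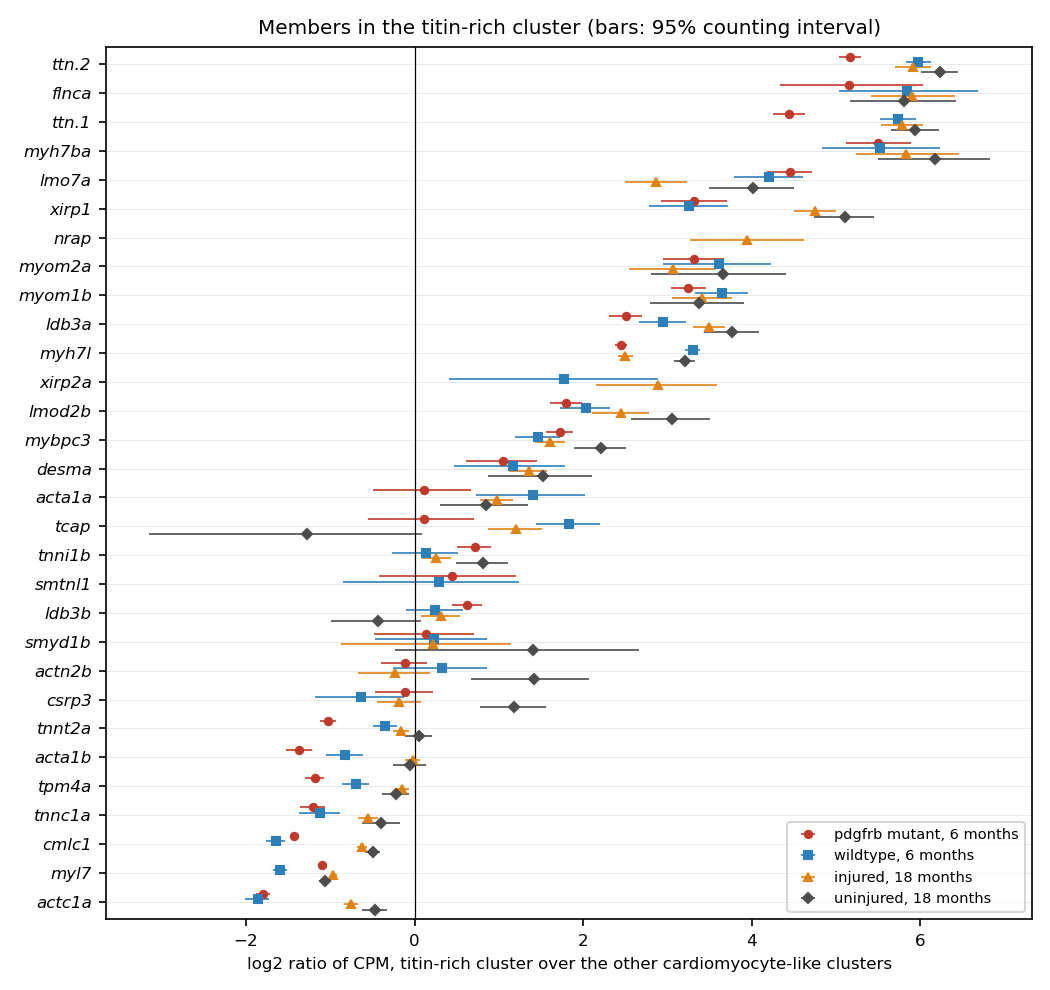
Log2 ratio of CPM in the titin-rich cluster over the other cardiomyocyte-like clusters, by library, with 95% counting intervals, for genes with at least 50 UMIs over both and none at 0. By their median over the libraries, titin genes, myh7ba and flnca lie highest, and myl7, cmlc1 and actc1a lie below 0.

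Levels outside cardiomyocytes measure how far sarcomere transcripts were free in the cell suspension or carried by other cells. Taken over all cells with under 3% myl7, the 34 genes other than myl7 stood at 7.50% of their cardiomyocyte level in mutant, 7.68% in wildtype, 4.31% in injured and 3.20% in uninjured libraries, but these cells included those of the titin-rich cluster. Among cells under 3% that also lay outside all cardiomyocyte-like clusters, the level was 0.456%, 0.810%, 1.34% and 1.90% in the same libraries. Cells outside these clusters with 3% or more myl7 were left out here and from the gene percentages that follow. With cardiomyocyte-like clusters in place of the threshold, the level was 0.649%, 2.67%, 1.89% and 2.80%. Among cells under 3% outside these clusters, myl7 stood at 0.278%, 0.483%, 0.621% and 1.18%. There tnnt2a stood at 0.237%, 0.411%, 0.944% and 1.19%, and actc1a at 0.164%, 0.182%, 0.598% and 0.982%. The percentage of myl7 is itself lowered by the myl7 threshold that divided the cells, so it is no measure to read others against. RNA from 1 source keeps its genes in 1 ratio, so the other genes are read against the percentages of tnnt2a and actc1a.

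Several genes stood above both in all 4 libraries, tpm4a and myh7l among them. Outside cardiomyocyte-like clusters, myh7l was at 0.690% of its cardiomyocyte level in mutant, 1.29% in wildtype, 2.05% in injured and 6.66% in uninjured cells. Its UMIs there numbered 11, 17, 164 and 466. In the same cells tpm4a was at 2.32% of its cardiomyocyte level in mutant, 4.58% in wildtype, 4.70% in injured and 5.17% in uninjured libraries. The UMIs of tpm4a there numbered 156, 234, 2349 and 2410.0. The level of tpm4a was 2890 CPM in the thrombocyte-like cluster of the injured library. It was 802 CPM in injured and 1116 CPM in uninjured cells of the endothelium and endocardium-like cluster. In wildtype cells of the EGFP-rich cluster led by TCIM, agtr2 and rgs5a it was 1329 CPM. xirp2a stood at 69.7% and 124% of its cardiomyocyte level in injured and uninjured cells outside cardiomyocyte-like clusters, with 77 and 45 UMIs, and 39 and 27 of these were in the endothelium and endocardium-like cluster. The mutant library had 2 such xirp2a UMIs and the wildtype library 0.

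Other genes that were over 3 times the median gene's percentage in at least 3 libraries had few UMIs outside cardiomyocyte-like clusters. lmo7a had 1 in mutant, 3 in wildtype, 42 in injured and 39 in uninjured cells, or 1.36%, 7.02%, 10.2% and 13.5% of its cardiomyocyte level. ttn.1 had 2, 2, 50 and 53, and ttn.2 had 4, 3, 88 and 83, in the same libraries. cmya5 had 4, 6, 31 and 6 UMIs, at 122%, 223%, 180% and 39.5% of a cardiomyocyte level of 3.56 to 6.50 CPM, so its level outside cardiomyocyte-like clusters was above that in cardiomyocytes in 3 of the 4 libraries. myh7ba had 1, 2, 11 and 9, nrap 1, 2, 3 and 2, and myom1a 0, 2, 4 and 3. The cardiomyocyte level left out cells of the titin-rich cluster that were under the 3% threshold. That cluster held 37.7% to 71.4% of a library's ttn.2 UMIs and 37.2% to 72.5% of its myh7ba UMIs. The percentages of genes high in that cluster are raised by this. By how much was not computed, and whether it accounts for them was not tested. They are therefore not read as a measure of expression in other cells.

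**Figure D5:**
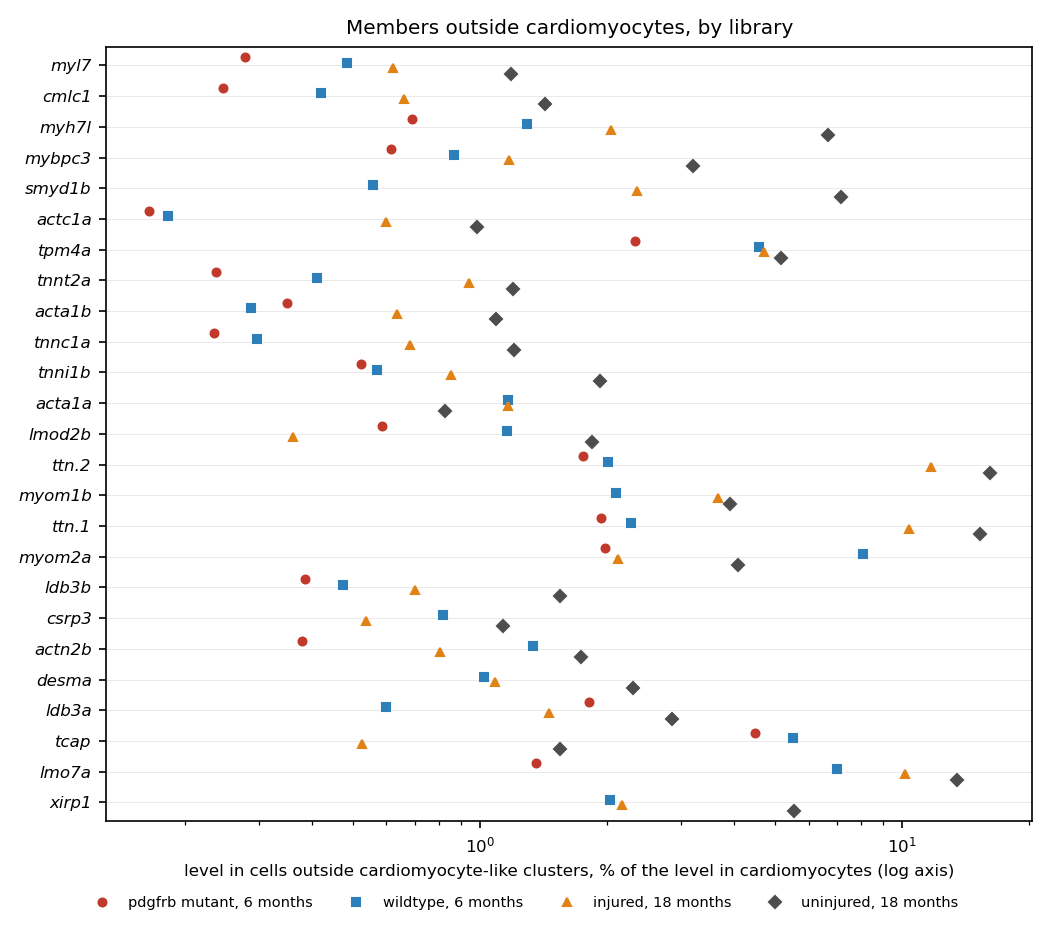
Level of each gene in cells outside cardiomyocyte-like clusters as a percent of its level in cardiomyocytes (log axis), by library, for genes with at least 50 UMIs in cardiomyocytes of each library. A gene at 0 has no point. Over the 4 libraries tnnt2a lies at 0.237% to 1.19%, actc1a at 0.164% to 0.982%, myh7l at 0.690% to 6.66% and tpm4a at 2.32% to 5.17%.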

How the data were processed

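Library construction used the 10x 3' kit v3.1, as the labels' protocols state. The matrices deposited by the authors hold UMI counts, whole numbers for every feature and barcode. Per the file headers they come from Cell Ranger 4.0.0. The submitters' processing notes name the build GRCz11 and, with no step, Seurat.

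Cells (5470) were barcodes with 200 or more detected genes and a mitochondrial share of no more than 25%. No doublet caller was run. Features with the same symbol were summed. UMIs were summed over cardiomyocytes of a library and scaled to CPM. Ratios have exact conditional binomial intervals, levels Poisson intervals and shares Clopper-Pearson intervals, all at 95%. A gene was measured with at least 50 UMIs over both libraries, and called past 1.5-fold. The ratio step was tested on simulated Poisson counts with no variation between cells, fish or libraries, so such variation was not covered. Of genes changed 2-fold, 94.5% were called in the mutant pair and 90.8% in the injured pair, beside 4.22% and 4.55% of unchanged genes. Clusters came from scanpy 1.11.5 (1970 variable genes without the members, 30 principal components, 15 neighbours, Leiden resolution 1.0), which gave 20 clusters, 8 of them cardiomyocyte-like by markers that are not members. TMM factors came from edgeR 4.0.16.

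The members, marker lists and alternatives were chosen with earlier results of these data known. Values in every library are given for the 10 members with most UMIs, for those past 1.5-fold in either pair, for those over 3 times the median percentage in other cells in at least 3 libraries, and for those with under 50 UMIs in both pairs. Values within clusters and by actc1a feature were added after seeing the data.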

Additional observations from a re-analysis of the deposited data

How the results depend on the processing

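With 1 library per group, no replicate could be left out. No paired analysis was possible because each group is 1 library and its replicate number is only a name. The 18 differences past 1.5-fold, myh7 included, were recomputed under alternatives that gave 179 values, of which 161 kept direction and threshold, 12 kept direction alone and 6 reversed. The reversed ones, all of the injured pair, were ttn.2 (-0.53) and myh7ba (-0.86) with myl7 of at least 5%, ttn.2 (-0.053) without its 5 top cells, and ttn.2 (-0.31), flnca (-0.034) and myh7ba (-0.020) without the titin-rich cluster. The cause was not tested. In the injured pair the 8 higher genes became 5 with myl7 of at least 5% (2 lower, median 0.18), 4 at 2-fold, 3 with cells thinned to 500 UMIs (median 0.14) and 5 without top cells, but 12 with myl7 of at least 1% and 11 with cardiomyocyte-like clusters. Of all genes measured, 12.5%, 4.68%, 9.57%, 13.3%, 19.8% and 29.2% were higher in the same settings, against 17.3% in the main one. With myl7 of at least 5%, 7.32% of all genes were lower and their median was 0.08. When thinned their median was 0.05. Without the 5 top cells of each gene the members' median was 0.23, beside 0.08 over all genes. Without the titin-rich cluster 6 members were higher and 1 lower (median 0.21). Of all genes 16% were higher and 7.24% lower in that setting (median 0.12). The cluster supplied 2.72% of injured and 0.373% of uninjured cardiomyocyte UMIs. TMM scaling gave 6 higher and 2 lower, beside 11.5% and 9.89% of all genes. Thinning leaves fewer genes with 50 UMIs, with 24 members measured in place of 30. In the mutant pair 1 gene was higher at 2-fold, beside 5.17% of all genes.

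The members' share of cardiomyocyte UMIs, in the order mutant, wildtype, injured, uninjured, was 24.0%, 22.7%, 15.7% and 17.6% with no mitochondrial limit, 24.0%, 22.6%, 15.3% and 17.5% with myl7 of at least 1%, and 24.5%, 23.0%, 16.6% and 18.3% with at least 5%. It was 24.0%, 22.6% and 14.97% in the first 3 with cardiomyocyte-like clusters in place of the threshold, 22.7%, 15.7% and 18.0% in the last 3 when thinned, and 24.5% in mutant without the titin-rich cluster. The level of the other members in cells under the threshold, as a percent of cardiomyocytes and in the same order, was 15.1%, 11.6%, 7.25% and 6.69% with no mitochondrial limit. It was 1.88%, 2.82%, 1.57% and 1.28% with myl7 of at least 1%, and 14.9%, 14.9%, 14.5% and 8.24% with at least 5%. It was 0.649%, 2.67%, 1.89% and 2.80% with clusters, 18.5%, 13.6%, 8.19% and 4.35% when thinned, and 1.55%, 2.37%, 2.65% and 2.53% without the titin-rich cluster. Depth limits genes under 50 UMIs, for which no ratio is read.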
